A study of Homo sapiens with 24 samples.

Results

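The data described here are the messenger RNA levels of 10 autophagy genes in LNCaP cells, an androgen-responsive line of human prostate adenocarcinoma. The 10 genes are ULK1, ULK2, ATG4B, ATG4D, TFEB, MAP1LC3B, SQSTM1, GABARAPL1, ATG7 and BECN1. They were taken by symbol from a table of 60649 features, as core autophagy factors and reported targets of androgen, and all 10 were found and passed the filter on low counts. In study 1, cells carried a construct for peptide 3 of WDR77 (P3) or empty vector (EV), and in study 2, siRNA against WDR77 (siWDR77) or a control siRNA (siCtrl). WDR77 is a coregulator of the androgen receptor and a partner of the methyltransferase PRMT5. All cells went into androgen-deprived medium the day after transfection, and a day later they received 5 nM R1881, a synthetic androgen, or its ethanol vehicle for 48 h. The groups were P3 with R1881, P3 with vehicle, EV with R1881, EV with vehicle, siWDR77 with R1881, siWDR77 with vehicle, siCtrl with R1881 and siCtrl with vehicle, with 3 libraries each, which the design text calls biological triplicates. Each library is a bulk sample of the transfected cells of 1 line, and the labels give no step that selects cells for uptake.

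Autophagy encloses cytoplasm in a double membrane and delivers it to the lysosome. The kinases ULK1 and ULK2 start the process. BECN1 belongs to the lipid kinase complex that marks the growing membrane. ATG7 is the activating enzyme for the conjugation of ATG8 proteins such as MAP1LC3B and GABARAPL1 to lipid. This follows their trimming by ATG4 proteases such as ATG4B and ATG4D. SQSTM1 carries ubiquitinated cargo to these ATG8 proteins and is itself degraded with it, and TFEB is a transcription factor for autophagy and lysosome genes. In prostate cancer cells androgen has been reported to raise several of these genes. Messenger RNA levels do not measure autophagic flux.

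The libraries held between 16665915 and 24260446 counts. WDR77 averaged 14.3 ± 1.17 CPM (counts scaled to a common library size) in siWDR77 cells with R1881 and 65.7 ± 1.76 CPM in siCtrl cells with R1881 (SD, n = 3 each), and 13.2 ± 1.80 CPM in siWDR77 cells with vehicle against 45.0 ± 2.85 CPM in siCtrl cells with vehicle. In study 1 it averaged 94.8 ± 5.61 CPM in P3 cells with R1881 and 60.8 ± 2.84 CPM in EV cells with R1881, and between 56.7 and 59.2 CPM in the vehicle groups. KLK3, the gene of prostate-specific antigen, checked the hormone: it averaged 4333 CPM with R1881 against 1924 CPM with vehicle in P3 cells, and 6865 against 1326 CPM in EV cells. In study 2 it averaged 8196 CPM with R1881 against 168 CPM with vehicle in siWDR77 cells, and 7833 against 153 CPM in siCtrl cells, where the vehicle library S35 had 52.6 CPM and the other 2 had 203 and 204 CPM. FKBP5, another androgen target, averaged 1032 CPM with R1881 against 89.2 CPM with vehicle in P3 cells, and 2481 against 73.7 CPM in EV cells. All 8 luminal markers checked were detected, their sum lying between 5185 and 19111 CPM, while 4 immune markers summed to at most 0.179 CPM, 4 basal markers to at most 10.002 CPM and 5 stromal markers to at most 25.0 CPM. One library stood apart: the siCtrl vehicle library S35 had 8.40% of its counts on mitochondrial genes, against 5.15% to 6.30% in the 23 others. Its values are given beside the results of GABARAPL1, SQSTM1 and MAP1LC3B, where it was the highest of its group. S35 was also the highest of its group, by less, for BECN1 (55.1 CPM, against 52.6 and 53.8) and ATG4B (69.4 CPM, against 66.7 and 68.5).

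SQSTM1 was the most abundant of the 10 messages per length in all 8 groups. In EV cells with R1881 it stood at 64.6 ± 4.39 CPM per kilobase of annotated exon (SD, n = 3), followed by GABARAPL1 at 22.7 ± 0.94, MAP1LC3B at 16 ± 0.993 and ULK1 at 15.5 ± 1.27. MAP1LC3B and ULK1 did not differ beyond their spread. ATG4D followed at 13.3 ± 1.66, ATG4B at 10.8 ± 0.416 and BECN1 at 9.96 ± 0.951. ATG7 at 3.99 ± 0.293, ULK2 at 3.59 ± 0.25 and TFEB at 2.99 ± 0.519 CPM per kilobase were the lowest 3, and the ranges of neighbours in this order overlapped. In EV cells with vehicle the order differed: GABARAPL1, at 11.7 ± 0.765 CPM per kilobase, lay below ULK1 at 12.9 ± 0.579 and ATG4D at 13.4 ± 0.865, close to MAP1LC3B at 11.05 ± 0.354. TFEB, the least abundant gene, still had 235 to 412 counts per library, and SQSTM1 had 5434 to 10422.

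**Figure D1:**
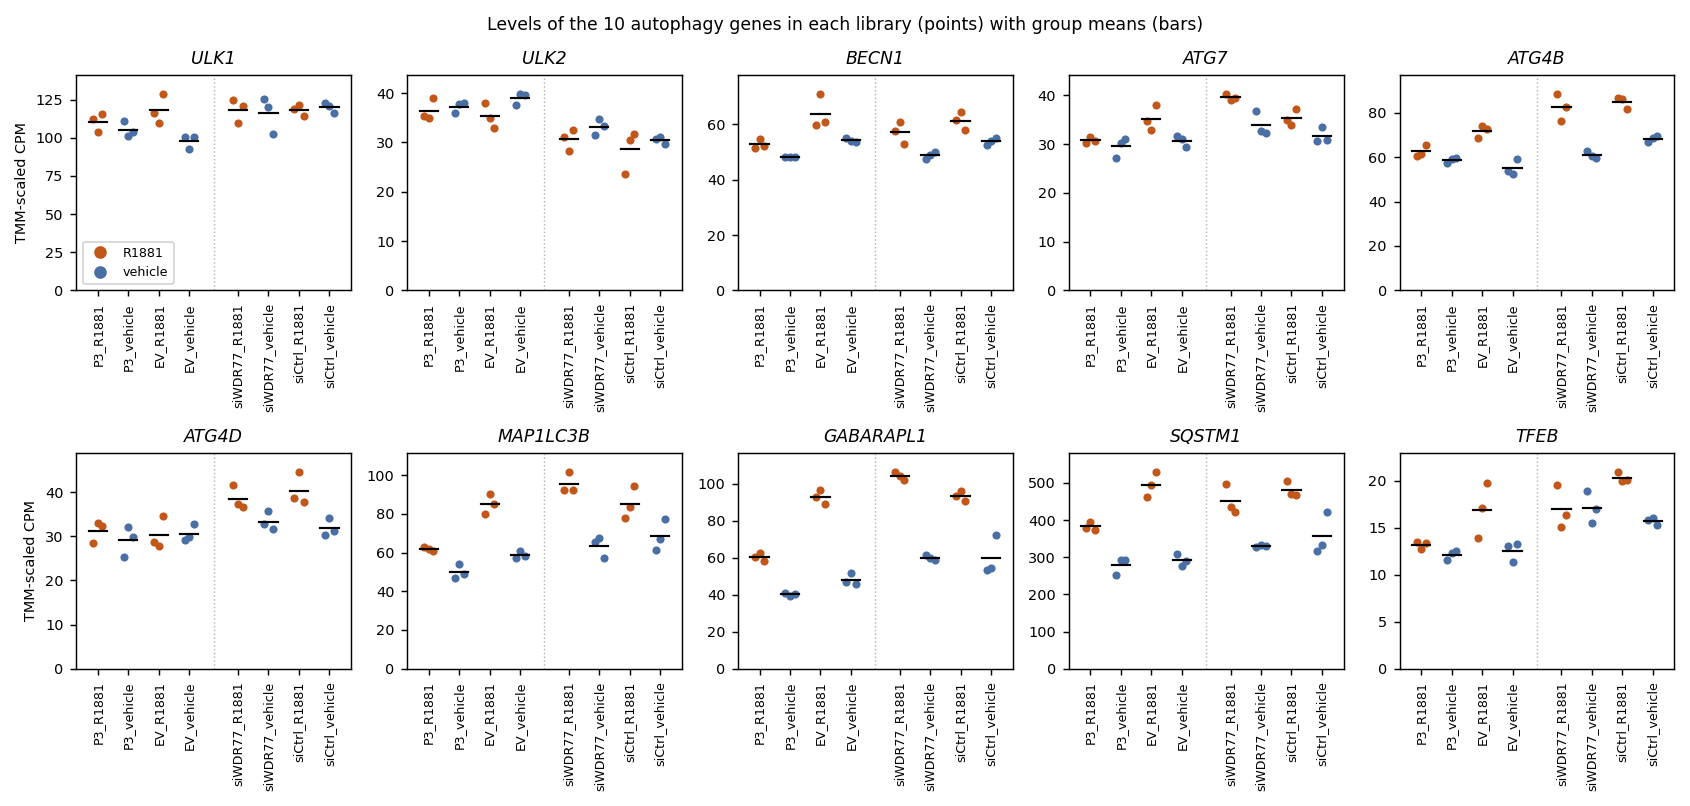
CPM after TMM scaling (y axis, from 0) of the 10 genes in each of the 24 libraries (points, orange for R1881 and blue for vehicle; black bars are group means, n = 3). GABARAPL1, MAP1LC3B, SQSTM1, ATG4B and BECN1 stood higher in the R1881 libraries of all 4 arms. In study 1 their R1881 libraries were lower in P3 cells (GABARAPL1 58.4 to 62.7 CPM) than in EV cells (88.9 to 96.6 CPM). Of all genes, 34.3% in P3, 56.8% in EV, 59.7% in siWDR77 and 57.9% in siCtrl cells had R1881 and vehicle libraries without overlap. For P3 against EV with R1881 the share was 45.1%.

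In EV cells, R1881 raised 8 of the 10 genes and lowered none. GABARAPL1 rose 1.93-fold, SQSTM1 1.69-fold, MAP1LC3B 1.45-fold, TFEB 1.35-fold and ATG4B 1.30-fold, with smaller rises of ULK1, BECN1 and ATG7, while ULK2 and ATG4D did not pass the test. With libraries scaled by their totals alone in place of TMM, 4 were called higher (GABARAPL1, SQSTM1, MAP1LC3B and ATG4B) and 1 lower (ULK2), and the log2 fold changes of TFEB (0.26), ULK1 (0.10), BECN1 (0.07) and ATG7 (0.03) no longer passed. Calls rest on edgeR's quasi-likelihood test, with p-values adjusted by Benjamini and Hochberg over all genes tested and a threshold of 0.05. By this rule R1881 changed 51.4% of all 17772 genes tested in EV cells, 24.9% upward. The median log2 fold change was 0.33 over the 10 genes and -0.04 over all genes, and for 8 of the 10 the 3 R1881 libraries did not overlap the 3 vehicle libraries, as for 56.8% of all genes. Less message per cell and fewer cells with the message cannot be told apart in such bulk RNA.

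The ATG8 genes and SQSTM1 had the largest fold changes of the 10 genes in EV cells. GABARAPL1 (chr12:10212458-10223130, plus strand of GRCh38 in GENCODE 29) had 88.9, 92.6 and 96.6 CPM in EV cells with R1881, against 45.7, 46.7 and 51.5 CPM in EV cells with vehicle. All R1881 libraries lay above all vehicle libraries, and the log2 fold change was 0.95 ± 0.064 (SE; adjusted p 1.79e-16). MAP1LC3B (chr16:87383995-87404779, plus strand), whose product is the LC3B protein used as a marker of autophagosomes, had 79.7, 85.1 and 90.2 CPM with R1881 and 57.1, 58.2 and 60.8 CPM with vehicle. The groups did not overlap here either, with a log2 fold change of 0.53 ± 0.064 (adjusted p 2.48e-09). Its near-identical copy MAP1LC3B2 was counted at 0.852 to 1.16 CPM with R1881 and 0.16 to 0.492 CPM with vehicle in the same cells, and how reads were shared between the copies is not given in the sources used here. SQSTM1 (chr5:179806398-179838078, plus strand) had 461, 493 and 528 CPM with R1881 against 278, 289 and 309 CPM with vehicle. All R1881 libraries again lay above all vehicle libraries, with a log2 fold change of 0.76 ± 0.057 (adjusted p 1.76e-14).

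TFEB (chr6:41683978-41736259, minus strand) had 13.9, 17.1 and 19.7 CPM in EV cells with R1881 and 11.3, 13.02 and 13.3 CPM in EV cells with vehicle. The lowest R1881 library was close to the highest vehicle library, and the log2 fold change was 0.43 ± 0.12 (adjusted p 0.00192). ATG4B (chr2:241637213-241673857, plus strand) had 68.6, 72.7 and 73.8 CPM with R1881 against 52.3, 53.8 and 58.9 CPM with vehicle, a log2 fold change of 0.38 ± 0.064 (adjusted p 2.34e-06). The other protease, ATG4D (chr19:10543895-10553418, plus strand), had 27.7, 28.6 and 34.7 CPM with R1881 and 29.04, 29.75 and 32.75 CPM with vehicle. These ranges overlapped fully, and the log2 fold change was -0.01 ± 0.093 (adjusted p 0.925).

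BECN1 (chr17:42810134-42833350, minus strand) had 59.8, 60.9 and 70.9 CPM with R1881 against 53.5, 53.9 and 55.1 CPM with vehicle, a log2 fold change of 0.24 ± 0.067 (adjusted p 0.00241). One R1881 library, S16, stood above the other 2, and without it the adjusted p was 0.0648. ATG7 (chr3:11272309-11557665, plus strand) had 32.9, 34.8 and 38 CPM with R1881 against 29.4, 31.0 and 31.7 CPM with vehicle. The groups did not overlap, but the log2 fold change of 0.19 ± 0.080 (adjusted p 0.0398) lost its call without the R1881 library S30 (adjusted p 0.196), or without the vehicle library S15 (0.0665) or S29 (0.0859). ATG7 shares 1596 exonic bases with VGLL4 on the opposite strand, whose own log2 fold change was -0.20 ± 0.064, and the strand setting of the counting is not given in the sources used here.

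Of the initiation kinases, ULK1 was called in EV cells and ULK2 was not, whereas by totals alone ULK2 was called lower (-0.31, adjusted p 0.000456) and ULK1 was not called (0.10, 0.163). ULK1 (chr12:131894651-131923167, plus strand) had 110, 116 and 129 CPM in EV cells with R1881 and 92.7, 100.2 and 100.4 CPM in EV cells with vehicle, without overlap. Its log2 fold change was 0.27 ± 0.061 (adjusted p 0.000226). ULK2 (chr17:19770829-19867936, minus strand) had 33.02, 34.98 and 37.9 CPM with R1881 against 37.5, 39.7 and 39.8 CPM with vehicle. The ranges overlapped by 1 library, and the log2 fold change of -0.14 ± 0.075 did not pass the test (adjusted p 0.112).

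The sequences before the start sites of ULK1 and ULK2, and of SQSTM1 as the most abundant message, are shown because ULK1 and SQSTM1 were called in EV cells with TMM and ULK2 was not, a contrast between ULK1 and ULK2 whose calls depend on the scaling. They are the 250 bases before the RefSeq start (GRCh38.p14), 5′ to 3′ on the gene's strand, with capitals for the GC box GGGCGG on either strand.
ULK1 (chr12:131894372-131894621, plus strand): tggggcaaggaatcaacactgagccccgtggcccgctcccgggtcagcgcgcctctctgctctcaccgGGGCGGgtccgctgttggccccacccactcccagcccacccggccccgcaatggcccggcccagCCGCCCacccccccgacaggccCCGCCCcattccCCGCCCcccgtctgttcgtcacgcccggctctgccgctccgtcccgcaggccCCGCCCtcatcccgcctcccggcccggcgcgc
ULK2 (chr17:19867937-19868186, minus strand): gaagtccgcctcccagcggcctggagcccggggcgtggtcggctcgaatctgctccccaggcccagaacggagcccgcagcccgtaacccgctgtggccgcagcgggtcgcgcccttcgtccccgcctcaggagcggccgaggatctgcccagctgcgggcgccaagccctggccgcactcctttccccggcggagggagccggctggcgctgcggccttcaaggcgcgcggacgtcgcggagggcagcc
SQSTM1 (chr5:179806143-179806392, plus strand): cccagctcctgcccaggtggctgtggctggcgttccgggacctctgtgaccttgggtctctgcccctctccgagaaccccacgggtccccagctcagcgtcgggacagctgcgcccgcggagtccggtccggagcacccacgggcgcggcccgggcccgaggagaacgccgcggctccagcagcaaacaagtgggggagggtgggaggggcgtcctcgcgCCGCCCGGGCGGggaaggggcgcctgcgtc

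The ULK1 window held 5 GC boxes, the ULK2 window none and this SQSTM1 window 2, which lie back to back. The promoter table held 13 windows for 9 of the 10 genes (all but ATG4D), and 11 of them, in 7 genes, held a GC box, as did 42.6% of all 35116 windows of this length. BECN1, which was called higher in EV cells with TMM, and ULK2 were the genes without one. None of the 13 windows held the E-box CACGTG, the core of the sites that TFEB binds, which 6.34% of all windows held. None held AGAACA, the hexamer of the androgen response element (12.4% of all windows), or the forkhead word GTAAACA (2.98%), and TGACGTCA, the cyclic AMP response element, was found for GABARAPL1 (1.65%). The windows of GABARAPL1, MAP1LC3B, ATG4B and ATG7, and 1 of 3 for SQSTM1, overlap annotated exons and are not printed. Both strands were searched, and these words are short, so a match is a description of the letters. The printed genes were picked with their calls known, and a relation of the words to the calls was not tested.

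In P3 cells, R1881 raised 3 of the 10 genes, GABARAPL1, SQSTM1 and MAP1LC3B, and 21% of all genes tested were called (13% upward). The median log2 fold change was 0.11 over the 10 genes and -0.02 over all genes. GABARAPL1 had 58.4, 60.6 and 62.7 CPM in P3 cells with R1881, against 39.5, 40.2 and 40.8 CPM in P3 cells with vehicle, a 1.51-fold rise (log2 fold change 0.59 ± 0.065, adjusted p 1.24e-09). SQSTM1 had 374, 380 and 396 CPM with R1881 against 253, 292 and 294 CPM with vehicle (0.46 ± 0.057, adjusted p 3.89e-08). MAP1LC3B had 60.7, 61.9 and 62.8 CPM with R1881 against 47.1, 49.2 and 54.2 CPM with vehicle (0.30 ± 0.065, adjusted p 0.000432). In all 3 genes the R1881 libraries lay above the vehicle libraries.

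The other 7 genes were not called in P3 cells, with log2 fold changes between -0.04 for ULK2 and 0.13 for BECN1. For BECN1, ATG4B and TFEB the 3 R1881 libraries nevertheless lay above the 3 vehicle libraries. BECN1 libraries with R1881 lay above the vehicle libraries, at 51.3, 52.3 and 54.8 CPM against 48.0, 48.1 and 48.3 CPM (0.13 ± 0.067, adjusted p 0.174). TFEB averaged 13.2 ± 0.384 CPM with R1881 and 12.1 ± 0.54 CPM with vehicle (SD, n = 3 each), ULK1 averaged 111 ± 5.85 CPM with R1881 and 105 ± 5.04 CPM with vehicle, and ATG4B 62.6 ± 2.71 CPM with R1881 and 58.8 ± 1.32 CPM with vehicle. Groups without overlap were seen for 6 of the 10 genes and for 34.3% of all genes.

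**Figure D2:**
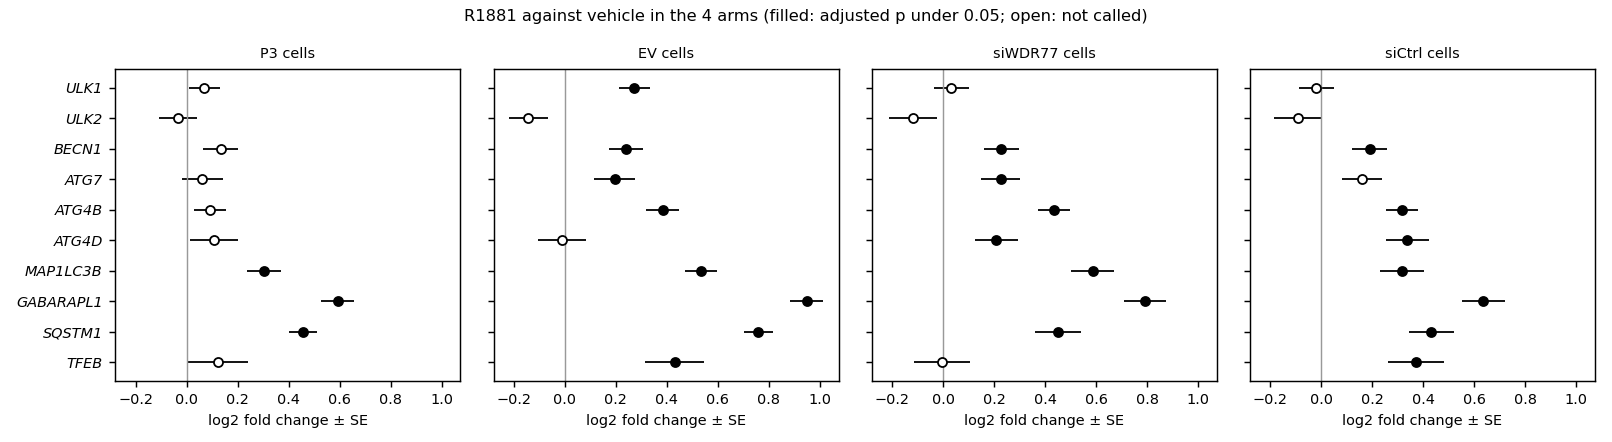
Log2 fold change of R1881 over vehicle ± SE (x axis) for the 10 genes (y axis) in P3, EV, siWDR77 and siCtrl cells; filled points had an adjusted p under 0.05. GABARAPL1 stood at 0.59 in P3, 0.95 in EV, 0.79 in siWDR77 and 0.64 in siCtrl cells, and TFEB at 0.12, 0.43, -0.005 and 0.37; with libraries scaled by their totals alone, the points that cross below 0 are ULK1 and ATG7 in P3 cells, BECN1 and ATG7 in siCtrl cells, and BECN1, ATG7, ATG4D and ULK1 in siWDR77 cells.

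The difference between the R1881 responses of P3 and EV cells was tested as an interaction. It passed for 3 of the 10 genes, all with the smaller response in P3 cells, and for 22.6% of all genes (11.1% lower in P3 cells). The count of 3 of 10 is near that 22.6%. By totals alone the interaction passed for GABARAPL1 and SQSTM1. The difference in log2 fold change was -0.36 ± 0.091 for GABARAPL1 (adjusted p 0.0029), -0.30 ± 0.080 for SQSTM1 (0.00427) and -0.29 ± 0.090 for ATG4B (0.0143). The call of ATG4B was lost without the EV vehicle library S15 (adjusted p 0.0588), and that of SQSTM1 in a fit over all 24 libraries (0.0702). MAP1LC3B (-0.23 ± 0.091, adjusted p 0.0644), ULK1 (-0.20 ± 0.086, 0.0866) and TFEB (-0.31 ± 0.17, 0.195) did not pass. ULK1 and MAP1LC3B each passed in 5 of the 12 fits that left out 1 library, and TFEB only in the fit without the EV R1881 library S2 (0.0309).

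With R1881 present, 6 of the 10 genes were lower in P3 cells than in EV cells and none was higher, where 37% of all genes were called (18.9% downward). By totals alone 3 were lower (GABARAPL1, MAP1LC3B and SQSTM1) and 1 higher (ULK2, 0.20), while TFEB (-0.20), BECN1 (-0.12) and ATG4B (-0.04) were not called, and 77.0% of the calls over all genes were higher in P3 cells, against 48.9% with TMM. The median log2 fold change was -0.24 over the 10 genes and 0.03 over all genes. This comparison shares its EV libraries with the response of EV cells, so the values stand side by side and do not support each other. GABARAPL1 was 1.53-fold lower in P3 cells (log2 fold change -0.61 ± 0.063, adjusted p 1.26e-10), MAP1LC3B 1.38-fold lower (-0.46 ± 0.064, 1.78e-07) and SQSTM1 1.29-fold lower (-0.37 ± 0.056, 1.61e-06). For each of the 3, the highest P3 library lay below the lowest EV library. Groups without overlap were seen for 7 of the 10 genes and for 45.1% of all genes. TFEB had 12.8, 13.3 and 13.5 CPM in P3 cells with R1881 against 13.9, 17.1 and 19.7 CPM in EV cells with R1881 (-0.36 ± 0.12, adjusted p 0.0146), and without the EV library S30 its adjusted p was 0.148. BECN1 was also lower in P3 cells (-0.28 ± 0.067, 0.000994), as was ATG4B (-0.20 ± 0.064, 0.0132). ATG4B lost its call without the EV library S16 (0.0599) or the P3 library S6 (0.0593). ATG7 (-0.19 ± 0.081, adjusted p 0.0559) lay just outside the threshold and passed in 7 of the 12 fits that left out 1 library. ULK1, ULK2 and ATG4D overlapped between the arms.

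With vehicle, 2 of the 10 genes were called between P3 and EV cells, GABARAPL1 and MAP1LC3B, both lower in P3 cells, beside 15.8% of all genes (7.88% downward). By totals alone neither was called (adjusted p 0.0597 for GABARAPL1 and 0.104 for MAP1LC3B), ULK1 was called higher in P3 cells (0.19, adjusted p 0.035), and 84.5% of the calls over all genes were higher, against 50.2% with TMM. GABARAPL1 averaged 40.2 ± 0.644 CPM in P3 cells and 48.0 ± 3.13 CPM in EV cells (SD, n = 3 each), a log2 fold change of -0.26 ± 0.066 (adjusted p 0.00544). MAP1LC3B averaged 50.1 ± 3.66 CPM in P3 cells and 58.7 ± 1.88 CPM in EV cells, a log2 fold change of -0.23 ± 0.065 (adjusted p 0.0127). For both genes every P3 library lay below every EV library, yet neither was called without the EV library S15 (adjusted p 0.0648 and 0.0676), and MAP1LC3B was not called without the P3 library S33 (0.0653) or S5 (0.0906). SQSTM1 averaged 279 ± 22.9 CPM in P3 cells and 292 ± 15.9 CPM in EV cells, and the ranges overlapped (log2 fold change -0.06 ± 0.057, adjusted p 0.487). TFEB likewise overlapped (-0.05 ± 0.12, adjusted p 0.827). The P3 and EV libraries with vehicle did not overlap for 4 of the 10 genes, against 34% of all genes.

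**Figure D3:**
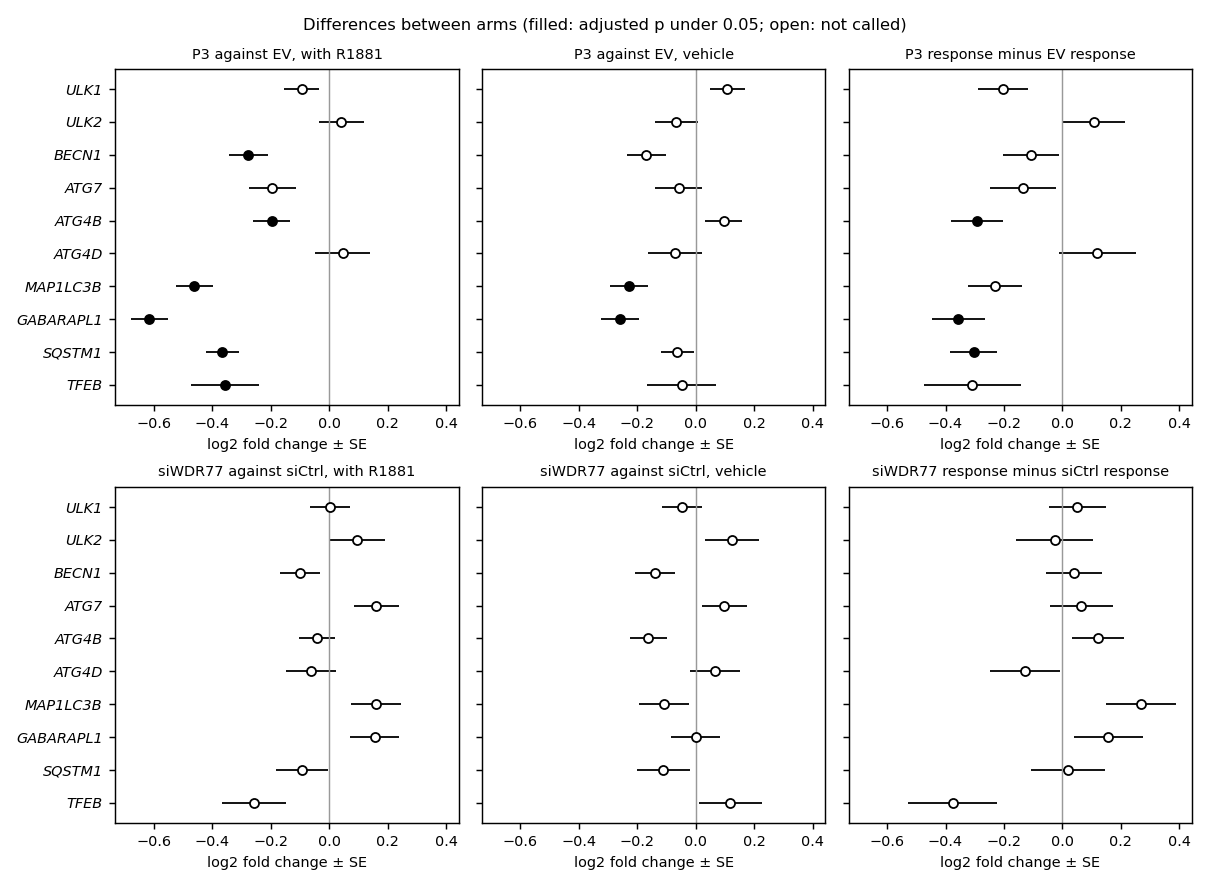
Log2 fold change between arms ± SE (x axis) for the 10 genes (y axis), P3 against EV above and siWDR77 against siCtrl below, with R1881, with vehicle, and as the difference between the R1881 responses; filled points had an adjusted p under 0.05. In P3 cells 6 of the 10 genes were called with R1881 (37% of all genes) and 2 with vehicle (15.8%). The difference between the responses was called for 3 (22.6%). Between siWDR77 and siCtrl cells 0 were called (7.22%, 1.53% and 0% of all genes). By totals alone the P3 counts were 4 with R1881 (1 of them, ULK2, higher), 1 with vehicle (ULK1, higher) and 2 for the difference. Of all 17772 genes, 5654 were then higher and 1688 lower with R1881, 2104 and 385 with vehicle, and 2930 and 1462 for the difference.

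In study 2, R1881 raised 7 of the 10 genes in siCtrl cells: BECN1, ATG4B, ATG4D, MAP1LC3B, GABARAPL1, SQSTM1 and TFEB, of which 1 (GABARAPL1, 0.38) stayed called when libraries were scaled by their totals alone. SQSTM1 then stood at 0.17 and MAP1LC3B at 0.06, BECN1 turned below 0, and ULK1 (-0.28) and ULK2 (-0.35) were called lower. With TMM it also raised 7 in siWDR77 cells, where ATG7 was called and TFEB was not, and where by totals alone GABARAPL1 (0.50) and MAP1LC3B (0.29) stayed called, BECN1, ATG7 and ATG4D turned below 0, and ULK1, ULK2 and TFEB were called lower. Of all genes tested, 53.2% were called in siWDR77 cells (27.7% upward) and 51.1% in siCtrl cells (25.7% upward). The median log2 fold change of the 10 genes was 0.23 in siWDR77 cells and 0.32 in siCtrl cells, against -0.02 and -0.04 over all genes. With TMM, 0 of the 10 were called lower in either arm. The R1881 and vehicle libraries did not overlap for 7 of the 10 genes in siWDR77 cells (59.7% of all genes). In siCtrl cells this held for 8 of the 10 (57.9% of all genes).

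GABARAPL1 had 102, 104 and 106 CPM in siWDR77 cells with R1881, against 58.8, 60.1 and 61.5 CPM in siWDR77 cells with vehicle (log2 fold change 0.79 ± 0.084, adjusted p 4.34e-08). In siCtrl cells it had 90.9, 93.2 and 96.1 CPM with R1881 against 53.3, 54.7 and 72.4 CPM with vehicle (0.64 ± 0.084, adjusted p 1.33e-06). The high vehicle value of 72.4 CPM belongs to library S35, and without it the log2 fold change in siCtrl cells was 0.78 ± 0.065. SQSTM1 showed the same library: it had 420, 436 and 498 CPM with R1881 against 328, 330 and 334 CPM with vehicle in siWDR77 cells, and 468, 470 and 506 CPM against 316, 334 and 422 CPM in siCtrl cells, where S35 held the 422. The log2 fold change of SQSTM1 was 0.45 ± 0.090 in siWDR77 cells (adjusted p 0.000502) and 0.43 ± 0.090 in siCtrl cells (0.000767), or 0.56 ± 0.063 in siCtrl cells without S35.

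MAP1LC3B had 92.1, 92.5 and 101 CPM with R1881 against 57.3, 65.5 and 67.5 CPM with vehicle in siWDR77 cells (0.59 ± 0.086, adjusted p 5.75e-06). In siCtrl cells it had 78.0, 83.5 and 94.1 CPM with R1881 against 61.4, 66.9 and 77.1 CPM with vehicle (0.32 ± 0.086, adjusted p 0.00389). S35 again held the highest vehicle value, and without it the change was 0.40 ± 0.081. The groups of both arms stayed apart, in siCtrl cells by less than 1 CPM.

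TFEB had 15.1, 16.3 and 19.5 CPM in siWDR77 cells with R1881 and 15.4, 16.9 and 18.9 CPM in siWDR77 cells with vehicle, which overlapped (log2 fold change -0.005 ± 0.11, adjusted p 0.974). In siCtrl cells it had 19.9, 20.1 and 20.9 CPM with R1881 against 15.2, 15.8 and 16.04 CPM with vehicle, without overlap (0.37 ± 0.11, adjusted p 0.00595). The difference between these responses, -0.38 ± 0.15, did not pass the test over all genes (unadjusted p 0.0218, adjusted p 0.52).

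ATG4B averaged 82.4 ± 5.97 CPM with R1881 and 60.9 ± 1.55 CPM with vehicle in siWDR77 cells, and 84.8 ± 2.696 CPM with R1881 and 68.2 ± 1.36 CPM with vehicle in siCtrl cells (SD, n = 3 each). Its log2 fold changes were 0.44 ± 0.063 in siWDR77 cells (adjusted p 2.31e-06) and 0.32 ± 0.063 in siCtrl cells (0.000172). ATG4D, which was not called in EV cells, averaged 40.2 ± 3.68 CPM with R1881 and 31.9 ± 2.06 CPM with vehicle in siCtrl cells (0.34 ± 0.085, adjusted p 0.00176). In siWDR77 cells it averaged 38.5 ± 2.75 CPM with R1881 and 33.3 ± 2.12 CPM with vehicle (0.21 ± 0.084, adjusted p 0.0396), a call that was lost in 5 of the 12 fits that left out 1 library (without the vehicle library S37, S9 or the siCtrl vehicle library S35, or the R1881 library S10 or S24, with adjusted p up to 0.188) and in DESeq2 (0.0683). In total, 10 of the 19 alternative fits did not keep this call.

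BECN1 averaged 57.2 ± 4.11 CPM with R1881 and 48.8 ± 1.40 CPM with vehicle in siWDR77 cells (0.23 ± 0.068, adjusted p 0.00648), and 61.4 ± 3.15 against 53.8 ± 1.24 CPM in siCtrl cells (0.19 ± 0.068, 0.023). The siCtrl call was lost without the R1881 library S22 (0.115) or S8 (0.0505), or the vehicle library S7 (0.0697). ATG7 averaged 39.6 ± 0.584 CPM with R1881 and 33.9 ± 2.45 CPM with vehicle in siWDR77 cells (0.23 ± 0.076, adjusted p 0.0157), and 35.4 ± 1.73 against 31.7 ± 1.66 CPM in siCtrl cells (0.16 ± 0.077, 0.0877). In siWDR77 cells the ATG7 call was lost without the vehicle library S23 (0.0632) or S37 (0.0735). ULK1 was not called in siWDR77 cells (0.03 ± 0.068, adjusted p 0.726) or in siCtrl cells (-0.02 ± 0.068, 0.83), and its libraries overlapped, whereas it was called in EV cells of study 1. ULK2 overlapped as well in siWDR77 cells (-0.12 ± 0.093, adjusted p 0.306) and in siCtrl cells (-0.09 ± 0.095, 0.446). The difference between the studies was not tested.

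Knockdown of WDR77 by itself moved none of the 10 genes past the threshold. With R1881, 0 of 10 were called between siWDR77 and siCtrl cells, where 7.22% of all genes were, and with vehicle 0 of 10, where 1.53% were. With R1881, TFEB had the largest difference, at -0.26 ± 0.11 (adjusted p 0.161), and its 3 siWDR77 libraries, at 15.1 to 19.5 CPM, lay below the 3 siCtrl libraries, at 19.9 to 20.9 CPM. With vehicle, ATG4B differed by -0.16 ± 0.063 (adjusted p 0.243) and BECN1 by -0.14 ± 0.068 (0.39), both with every siWDR77 library below every siCtrl library. GABARAPL1 stood at -0.0007 ± 0.084 with vehicle, and at 0.16 ± 0.065 without S35 (adjusted p 0.23). Non-overlapping groups were seen in 3 of 10 genes with R1881 and 3 of 10 with vehicle, against 27.1% and 17.7% of all genes. The difference between the R1881 responses passed for 0% of all 17893 genes in edgeR, although 1484 had an unadjusted p under 0.05, and DESeq2 called 56. Among the 10 it was largest for TFEB (-0.38), followed by MAP1LC3B (0.27 ± 0.12, adjusted p 0.575), which was 0.15 ± 0.11 without S35.

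The scaling of the libraries decided many of these calls, in study 2 also those of SQSTM1. The TMM factors, which correct for a change in composition, lay between 0.893 and 0.932 in the R1881 libraries of EV, siWDR77 and siCtrl cells, and between 1.01 and 1.12 in their vehicle libraries. With libraries scaled by their totals alone, the median R1881 change of all genes moved by -0.09 in P3, -0.17 in EV, -0.30 in siWDR77 and -0.26 in siCtrl cells. The calls then split into 35.5% higher in P3 cells, against 62.1% with TMM, 30.8% against 48.5% in EV cells, 25.5% against 52.0% in siWDR77 cells, and 25.5% against 50.3% in siCtrl cells. The 10 genes moved with the median. Set against the median of all genes, each of the 10 changes differed by at most 0.00346 between the scalings. A change of scaling shifts all genes of a comparison nearly alike, so this follows from the arithmetic and does not test the calls. Relative to that median GABARAPL1 stood at 0.99 in EV, 0.81 in siWDR77 and 0.68 in siCtrl cells. BECN1 stood at 0.28, 0.24 and 0.23, and ULK2 at -0.10, -0.10 and -0.05.

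**Figure D4:**
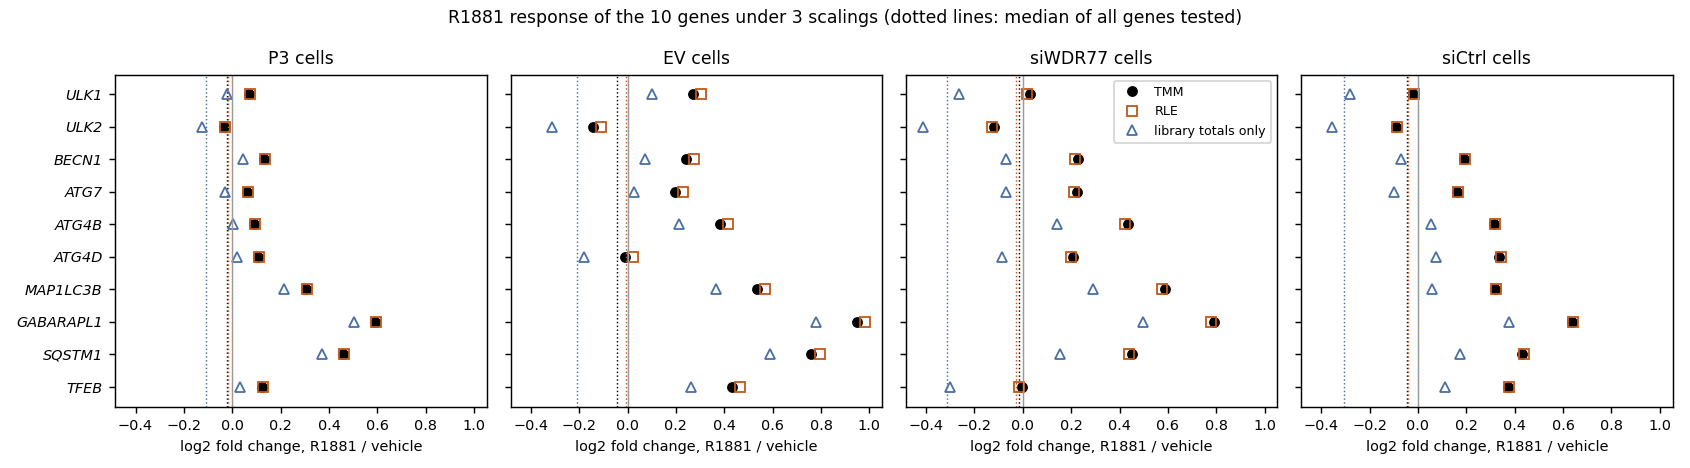
Log2 fold change of R1881 over vehicle (x axis) for the 10 genes (y axis) in P3, EV, siWDR77 and siCtrl cells with 3 scalings of the libraries; dotted lines are the median of all genes tested under each. TMM and RLE nearly coincide, and scaling by totals alone shifts the 10 genes and the median together, so that BECN1 in siCtrl cells stands at 0.19 with TMM and -0.07 by totals alone, while GABARAPL1 stays above 0 in all 4 arms.

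Other genes of the pathway were taken from 10 lists of autophagy and lysosome genes, 109 in all, of which 104 were tested. In P3 cells R1881 raised 34 and lowered 5 of the 104, with a median log2 fold change of 0.09. In EV cells it raised 57 and lowered 13, and the median was 0.23. In siWDR77 cells it raised 48 and lowered 19 (median 0.19), and in siCtrl cells 45 and 18 (median 0.09). Of all genes tested, 13% were called higher and 7.96% lower in P3 cells, 24.9% and 26.4% in EV cells, 27.7% and 25.5% in siWDR77 cells, and 25.7% and 25.4% in siCtrl cells. By totals alone the counts were 20 higher and 11 lower in P3, 35 and 29 in EV, 25 and 46 in siWDR77, and 20 and 49 in siCtrl cells. Of all 17772 genes tested in study 1, 1609 were then higher and 2927 lower in P3 cells, and 3091 and 6930 in EV cells. Of all 17893 in study 2, 2775 were higher and 8096 lower in siWDR77 cells, and 2669 and 7810 in siCtrl cells.

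Of 3 partners of ULK1 in the initiation complex, 2 rose in EV cells. ATG101 had 33.8, 37.1 and 39.6 CPM in EV cells with R1881 against 17.4, 18.7 and 18.8 CPM with vehicle, a log2 fold change of 1.01 ± 0.089 (adjusted p 6.13e-13), and it rose by 1.69 in siWDR77 and 1.71 in siCtrl cells. ATG13 rose by 0.70 ± 0.058 in EV cells, and RB1CC1, the scaffold of the complex, did not pass the test (0.08 ± 0.065). The largest rise among the 104 genes was that of WIPI1, which binds the phospholipid made by the BECN1 complex: it had 51.1, 55.5 and 60.6 CPM in EV cells with R1881 against 5.59, 6.33 and 8.20 CPM with vehicle (3.06 ± 0.12, adjusted p 2.06e-19). In P3 cells WIPI1 had 28.9, 29.96 and 32.2 CPM with R1881 against 7.26, 10.01 and 11.1 CPM with vehicle, and its response was smaller than in EV cells by 1.38 ± 0.18 on the log2 scale (adjusted p 3.3e-07). Of the 8 genes of the ATG9, ATG2 and WIPI list, 7 rose in EV cells, WDR45 (0.72) and WIPI2 (0.26) among them, of which WIPI2 lost its call by totals alone (0.09, adjusted p 0.157).

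The remaining conjugation genes went in both directions. ATG3, the conjugating enzyme that acts after ATG7, fell by 0.58 in EV cells (adjusted p 2.93e-10), by 0.90 in siWDR77 and by 0.95 in siCtrl cells, and ATG16L2 fell by 0.82 in EV, 1.43 in siWDR77 and 1.30 in siCtrl cells. ATG4A, another protease of the ATG4 family, rose by 0.47 ± 0.080 in EV cells. All 4 other ATG8 genes tested rose in EV cells by TMM, against 0 of 4 in siCtrl cells: GABARAPL2 by 0.33 ± 0.058, MAP1LC3A by 0.44 ± 0.17, GABARAP by 0.60 ± 0.24 and MAP1LC3B2 by 1.34 ± 0.53, the last with at most 1.16 CPM in any EV library. Of these, only GABARAPL2 kept its call by totals alone. For the BECN1 complex, 2 of 7 genes rose in EV cells, RUBCN (0.52 ± 0.093), which restrains the complex, and AMBRA1 (0.25 ± 0.071), of which AMBRA1 lost its call by totals alone (adjusted p 0.361).

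Among cargo receptors other than SQSTM1, 9 of 11 rose and 1 fell in EV cells. CCPG1, a receptor for the endoplasmic reticulum, rose by 1.52 ± 0.12 and BNIP3, a receptor for mitochondria, by 0.82 ± 0.0525, whereas RETREG1, another receptor for the endoplasmic reticulum, fell to 24.8 to 27.1 CPM with R1881, against 65.5 to 75.1 CPM with vehicle (adjusted p 7.04e-20). In the list of transcription factors with TFEB, 5 of 7 rose in EV cells, among them FOXO1 (1.26 ± 0.15), FOXO3 (0.62 ± 0.050) and TFE3 (0.40 ± 0.057), the relative of TFEB. TFE3 rose by 0.22 in siCtrl cells by TMM and stood at -0.05 by totals alone. The controls upstream of ULK1 split: of 20 genes, 7 rose and 7 fell in EV cells. CAMKK2, a kinase that activates AMPK, rose by 1.70 ± 0.053, MTOR, the kinase that inhibits ULK1, by 1.62 ± 0.051, and SESN1, an inhibitor of MTOR signalling, fell by 1.71 (adjusted p 2.7e-25). In the lysosome list 12 of 23 rose and 3 fell in EV cells, with NEU1 at 0.68 ± 0.070, ATP6V0D1 at 0.54 ± 0.056 and CTSL at -0.25 ± 0.063, and of the fusion genes 7 of 13 rose, EPG5 by 0.63 ± 0.064 and YKT6 by 0.43 ± 0.055.

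**Figure D5:**
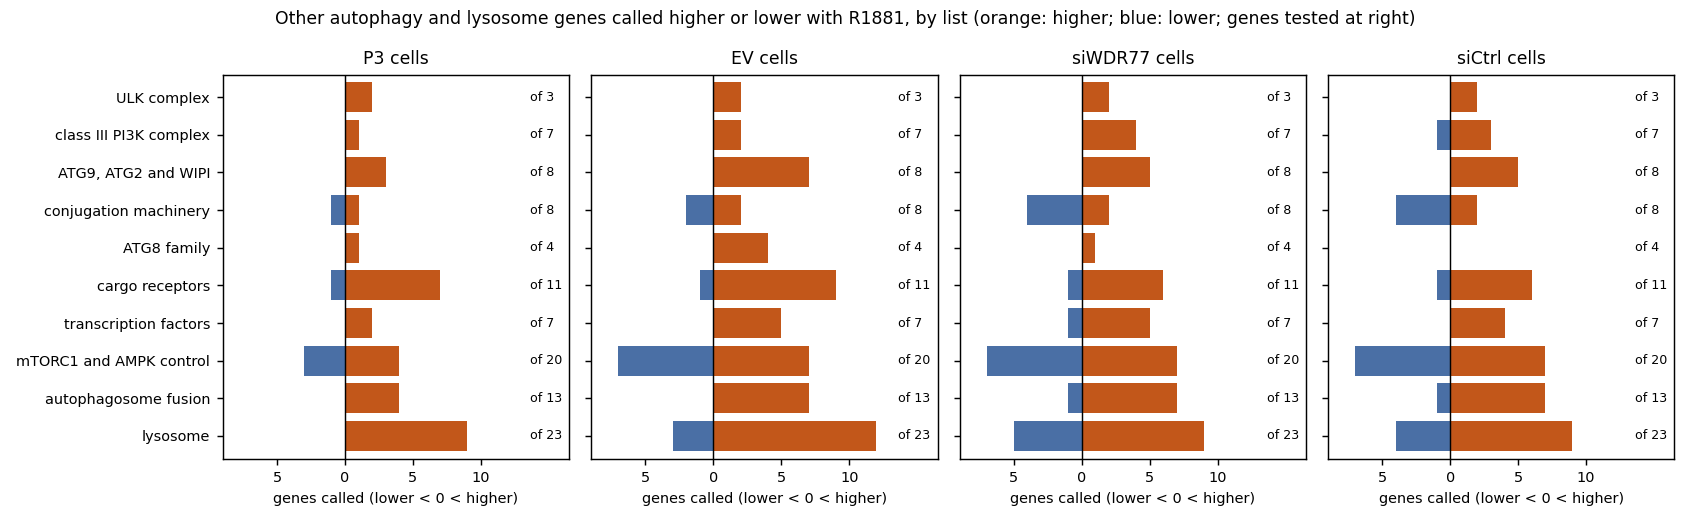
Number of other autophagy and lysosome genes called higher (right of 0, orange) or lower (left of 0, blue) with R1881 by TMM (x axis) in each of 10 lists (y axis), in P3, EV, siWDR77 and siCtrl cells; the number tested stands at the right. In P3 cells 34 of 104 genes were higher and 5 lower (13% and 7.96% of all genes), in EV cells 57 and 13 (24.9% and 26.4%). By totals alone the counts were 20 and 11 in P3 cells, and 35 and 29 in EV cells. Of all 17772 genes, 1609 were then higher and 2927 lower in P3 cells, and 3091 and 6930 in EV cells.

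Between P3 and EV cells with R1881, 54 of the 104 genes were lower and 8 were higher in P3 cells, including 14 of 23 lysosome genes and 10 of 13 fusion genes among the lower, where 18.9% of all genes were lower and 18.1% higher. With vehicle, 26 were lower and 8 higher in P3 cells, against 7.88% and 7.93% of all genes. The R1881 response differed in 26 of the 104, and was lower in P3 cells for 19 of them (11.1% of all genes were lower and 11.5% higher), among them ATG13 (-0.36 ± 0.082, adjusted p 0.000892) and CAMKK2 (-0.90 ± 0.073). By totals alone these counts were 27 lower and 16 higher with R1881, 9 and 15 with vehicle, and 15 and 11 for the response. Of all 17772 genes, 1688 were then lower and 5654 higher with R1881, 385 and 2104 with vehicle, and 1462 and 2930 for the response. Between siWDR77 and siCtrl cells, 2 were lower and 6 higher with R1881 (3.31% and 3.9% of all genes), including MTOR (0.33 ± 0.064, adjusted p 0.00231) and WIPI1 (0.30 ± 0.084, 0.0315). With vehicle 3 were lower and 1 higher (0.844% and 0.682% of all genes), and none differed in its response, with 7 of 104 at an unadjusted p under 0.05.

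Across the 24 libraries, centred within each study, the 10 genes were not one block. MAP1LC3B and GABARAPL1 had a Pearson correlation of 0.95 and GABARAPL1 and SQSTM1 one of 0.93, whereas ULK2 was negatively related to the other 9, from -0.16 with ATG4D to -0.54 with SQSTM1. ULK1 and TFEB stood at 0.55, and ULK1 and BECN1 at 0.20. These are descriptions over libraries that share the R1881 contrast and the scaling, and carry no test. Of 17235 genes, those with the pattern most like SQSTM1 were ZYX (0.97), TNIP1 (0.96) and WBP2 (0.96). Those most like TFEB were CYB5R3, PLA2G4F and NECTIN1 (each 0.83), and those most like ULK1 were MED15 (0.87), KDM2A (0.79) and TNRC18 (0.76).

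Several of the 10 genes share exonic bases with a neighbour on the opposite strand. GABARAPL1 shares 329 with the antisense gene AC115676.1, for which no count is given here. SQSTM1 shares 1582 with MRNIP, which averaged 702 counts per library against 7567 for SQSTM1, and 105 with MGAT4B, which averaged 3118. BECN1 shares 795 with CNTD1, which averaged 40.6 counts per library. BECN1 also shares 300 with PSME3, which averaged 4470 counts per library against 1097 for BECN1. The log2 fold change of PSME3 in EV cells was -0.02 ± 0.050. MAP1LC3B shares 150 with FBXO31, which itself rose by 0.60 ± 0.066 in EV cells, and ATG4D shares 341 with KRI1, which fell by 0.49 there and stood at -0.01 in siCtrl cells. ATG4B shares 237 with THAP4, which averaged 1290 counts per library against 1354 for ATG4B. The part of these neighbours in the values was not tested.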

How the data were processed

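Gene counts of 24 polyA libraries were analysed as deposited: whole-number counts per feature, which the authors made with bcl2fastq 2.20, STAR 2.7.9a and featureCounts of Subread 1.6.4 on GRCh38.p7, per the submitters' processing notes. For the counting, no strand setting, annotation release or rule for reads with several matches is given here. In the table, the 3 P3 libraries with R1881 carry the extra word siRNA in their column names and were matched by sample number. Each study was fitted separately (R 4.3.3, edgeR 4.0.16: filterByExpr, TMM, robust quasi-likelihood F test with a mean per group over 12 libraries, Benjamini-Hochberg adjustment over all genes tested, threshold 0.05). SE is the log2 fold change divided by the root of F. CPM are scaled by TMM within a study, and levels per kilobase use the exon union of GENCODE 29. Alternatives were RLE scaling, no filter, DESeq2 1.42.0, the run of sample numbers as a block, other sets of libraries, leaving out each library, and library totals alone, the last chosen after seeing the data. The fitting code was also run on counts simulated from the fitted model, which does not test the scaling or the calls in the real data. P-values measure the spread between these triplicates. Named were all 10 genes, WDR77, KLK3 and FKBP5, genes from the 3 with the lowest adjusted p per list in EV or siCtrl cells, the 3 most alike genes for ULK1, TFEB and SQSTM1, and overlapping neighbours. The genes, lists and rules were chosen with earlier results of these data known.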

Additional observations from a re-analysis of the deposited data

Results flagged for a closer look

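For 3 of the 10 genes the R1881 response differed between P3 and EV cells by an interaction test in edgeR. It passed for 22.6% of all genes (11.1% lower in P3 cells), so the count of 3 of 10 is near the share of all genes. The difference in log2 fold change, P3 minus EV, was -0.36 ± 0.091 for GABARAPL1 (adjusted p 0.0029), -0.30 ± 0.080 for SQSTM1 (0.00427) and -0.29 ± 0.090 for ATG4B (0.0143). GABARAPL1 kept its call in all 12 fits that left out 1 library (-0.42 to -0.32) and by library totals alone, and SQSTM1 did so too (-0.39 to -0.25), but SQSTM1 lost it in the fit over all 24 libraries (adjusted p 0.0702). ATG4B lost its call without the EV vehicle library S15 (0.0588) and by library totals alone (0.0755). KLK3 also had a smaller response in P3 cells, with a difference of -1.2 ± 0.067 on the log2 scale, and the relation of these changes to each other was not tested.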

How the results depend on the processing

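Of 1880 values of the 10 genes under alternatives, 1794 kept direction and side of the threshold, 46 lost a call, 35 gained one and 5 reversed, while 66 values called in neither fit changed sign. All 5 reversals came with library totals alone: in siWDR77 cells R1881 then gave -0.0873 for ATG4D, -0.0712 for ATG7, -0.068 for BECN1 and -0.26 for ULK1, and in siCtrl cells -0.0714 for BECN1. That scaling called 5 of the 10 genes in EV cells (4 higher), 3 in siCtrl cells (1 higher) and 1 between P3 and EV cells with vehicle (ULK1, higher). Of all genes it called 3091 higher and 6930 lower in EV cells and 2669 and 7810 in siCtrl cells. Between P3 and EV cells with vehicle it called 2104 higher and 385 lower. Its effect follows the shift of the median of all genes. With it the share of higher calls between P3 and EV cells moved to 77.0% with R1881 and 84.5% with vehicle, against 48.9% and 50.2%.

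The difference between P3 and EV responses was called for 5 of the 10 genes with RLE, 5 with the run of sample numbers as a block, and 2 to 6 when 1 library was left out, and P3 against EV with vehicle for 0 to 2. Over all genes, leaving out 1 library gave 1344 to 3176 calls for P3 against EV with vehicle, 587 to 1983 for siWDR77 against siCtrl with R1881, and 91 to 478 with vehicle, the 478 without S35. With vehicle that count was 273, and 422 without a filter, 436 in DESeq2, 127 with only the groups compared and 491 over 24 libraries. For the change of response by siWDR77 it was 0, and 112 without a filter, 56 in DESeq2, 16 with the block, 1 by totals alone, 40 over 24 libraries and 0 to 43 when 1 library was left out (43 without S35). Of the 104 pathway genes, 20 to 40 were called for P3 against EV with vehicle, 3 to 12 for siWDR77 against siCtrl with R1881 and 0 to 4 with vehicle when 1 library was left out, 0 with only the groups compared with vehicle, and 1 for the change of response without a filter. The causes of these moves were not tested.

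Libraries of the same run of sample numbers had median correlations of their deviations of 0.023 in study 1 (3 of 18 pairs over 0.1) and 0.031 in study 2 (1 of 18). For libraries of different runs the medians were -0.014 (0 of 36) and -0.017 (1 of 36). The same-run values were slightly higher but small, and the main fit did not take the numbers as pairs. With the block 4 values gained a call and 0 lost one. TFEB, with 235 to 412 counts per library, had the largest SE of the 10 genes in every comparison of study 1, and 3 libraries per group limit what small changes can be seen.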
